A study of Rattus norvegicus with 4 samples.

Results

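Genes for secreted innate defence proteins and for enzymes that make nitric oxide or dispose of superoxide were examined in cultured rat microvessels. They were picked by symbol: the siderophore binder Lcn2, the antiprotease Slpi, the calgranulins S100a8 and S100a9, the long pentraxin Ptx3, the inducible nitric oxide synthase Nos2 and the mitochondrial superoxide dismutase Sod2. Of these 7 genes, 6 were found among the 23608 genes of the count table, and Nos2 was not analysed here. Of the 6, 4 (Lcn2, Slpi, Ptx3 and Sod2) reached 1 CPM (the gene's count scaled to library size) in at least 1 library, the minimum that 13634 genes passed. Lcn2 and Slpi had been chosen because they were among the genes lowest on stiff matrix, so every value of stiff against soft is given for these genes as a description, with no test.

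The samples were wild-type primary rat vascular cells grown as microvessels out of subcutaneous soft connective tissue, on a soft or a stiff extracellular matrix. Each matrix was used without and with A83-01, a small molecule that blocks signalling by type I TGF-beta receptors; TGF-beta is a cytokine that drives matrix production. This gave 4 groups of 1 library each, named here soft and stiff, with A83-01 added to the name where it was present. Neither the stiffness of the matrices, the inhibitor dose nor the culture time is given in the sources used here. The 2 stiff libraries carry names of another form than the 2 soft ones, so an effect of matrix cannot be told apart from one of separate preparation.

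Lcn2, the lipocalin also called NGAL, captures bacterial siderophores and so keeps iron from bacteria. Slpi blocks neutrophil elastase and other serine proteases, and Ptx3 is a soluble pattern recognition protein that binds complement C1q and helps to organise hyaluronan matrix. S100a8 and S100a9 pair to form calprotectin, a metal-binding protein abundant in neutrophils that signals through the receptor Tlr4. Sod2 turns superoxide into hydrogen peroxide inside mitochondria and is, unlike the products of the other genes analysed here, not secreted. Interleukin-1, TNF and bacterial products induce many of these genes, in large part through the transcription factors NF-kB and C/EBP.

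All lists of 4 values give first the 2 soft libraries, without and then with A83-01, and after them the 2 stiff ones in the same way. Depth was 32475473, 32271844, 33178552 and 33416200 counts. A count of 0 allows up to 3 counts, which was 0.0842 to 0.103 CPM. CPM values were scaled with trimmed mean of M-values (TMM) factors. Endothelial, mural and fibroblast markers were all present: VE-cadherin, Cdh5, stood at 730 to 1325 CPM, smooth muscle actin, Acta2, at 88.9 to 3691 CPM and collagen I, Col1a1, at 17577 to 69475 CPM. With 1 library per group no difference between 2 libraries has a replicate check. Intervals in parentheses after a fold are 95% Clopper-Pearson intervals of the count ratio and cover counting error only. Folds carry a prior count of 2, which pulls those of low counts toward 1. In bulk RNA, fewer cells of a type and less RNA per cell cannot be told apart.

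Promoter sequence was available in the RefSeq table (build GRCr8) for 4 of the 7 genes: Lcn2, Ptx3, S100a9 and Sod2. The 250 bases before the annotated start are shown for the 3 of them that reached the expression minimum, because these 3 genes stood low together in both stiff libraries. Capitals mark matches to the NF-kB consensus and to a C/EBP motif, TTNNGNAA, searched on both strands along with the AP-1 motif TGANTCA and the TATA box TATAAA. The regions are chr3:36081781-36082030, minus strand, for Lcn2, chr2:152797313-152797562, plus strand, for Ptx3, and chr1:50050169-50050418, minus strand, for Sod2.
Lcn2: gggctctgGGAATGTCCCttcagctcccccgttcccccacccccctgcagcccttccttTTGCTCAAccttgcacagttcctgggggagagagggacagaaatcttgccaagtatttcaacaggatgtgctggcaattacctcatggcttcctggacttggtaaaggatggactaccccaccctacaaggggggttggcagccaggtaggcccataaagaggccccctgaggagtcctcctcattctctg
Ptx3: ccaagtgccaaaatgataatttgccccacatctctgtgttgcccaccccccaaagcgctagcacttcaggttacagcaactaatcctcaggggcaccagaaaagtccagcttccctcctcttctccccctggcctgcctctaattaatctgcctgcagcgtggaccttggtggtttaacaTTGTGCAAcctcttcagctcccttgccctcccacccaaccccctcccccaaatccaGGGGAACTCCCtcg
Sod2: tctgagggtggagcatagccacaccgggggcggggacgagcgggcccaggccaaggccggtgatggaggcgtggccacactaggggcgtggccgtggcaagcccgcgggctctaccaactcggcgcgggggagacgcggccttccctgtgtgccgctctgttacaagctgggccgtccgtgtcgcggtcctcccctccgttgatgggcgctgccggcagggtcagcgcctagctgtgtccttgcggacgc

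The NF-kB consensus matched in Lcn2, 242 to 233 bases before the start on the reverse strand, and in Ptx3, where a forward and a reverse match overlap 14 to 4 bases before the start. Of all 33465 promoter windows of this length, 3.54% held a match. The C/EBP motif matched 191 bases before the start in Lcn2, 70 bases before it in Ptx3 and 173 bases before it in S100a9, and 37.2% of all windows held one. S100a9 also held a TATA box 42 bases before its start, against 12.9% of all windows. The AP-1 motif, found in 6.34% of all windows, matched in 0 of the 4, and the Sod2 window held none of the 4 motifs. A match describes these letters and shows no binding.

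Per transcript length, Lcn2 was the most abundant of the 6 genes on soft matrix, and Sod2 on stiff matrix. The deposited FPKM values, fragments scaled to transcript length and library size, allow levels of genes to be set side by side. Lcn2 stood at 1127 FPKM in soft and 1388 FPKM in soft with A83-01, where only 48 and 31 genes of the whole table ranked above it. In soft, Slpi followed at 309 FPKM, Sod2 at 271 FPKM, Ptx3 at 60.3 FPKM, S100a9 at 0.153 FPKM and S100a8 at 0.0926 FPKM, and the order was the same in soft with A83-01. In stiff the order was Sod2 at 21.2 FPKM, Ptx3 at 4.68 FPKM, Lcn2 at 3.38 FPKM, Slpi at 0.377 FPKM and S100a9 at 0.161 FPKM, with S100a8 listed at 0. In stiff with A83-01 it was Sod2 at 53.0 FPKM, Lcn2 at 18.6 FPKM, Ptx3 at 9.81 FPKM, Slpi at 6.61 FPKM, S100a9 at 1.32 FPKM and S100a8 at 0.199 FPKM. With 1 library each there is no spread against which neighbours in these orders could be compared. Together the 6 genes took 0.241%, 0.292%, 0.00703% and 0.0187% of all counts.

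**Figure D1:**
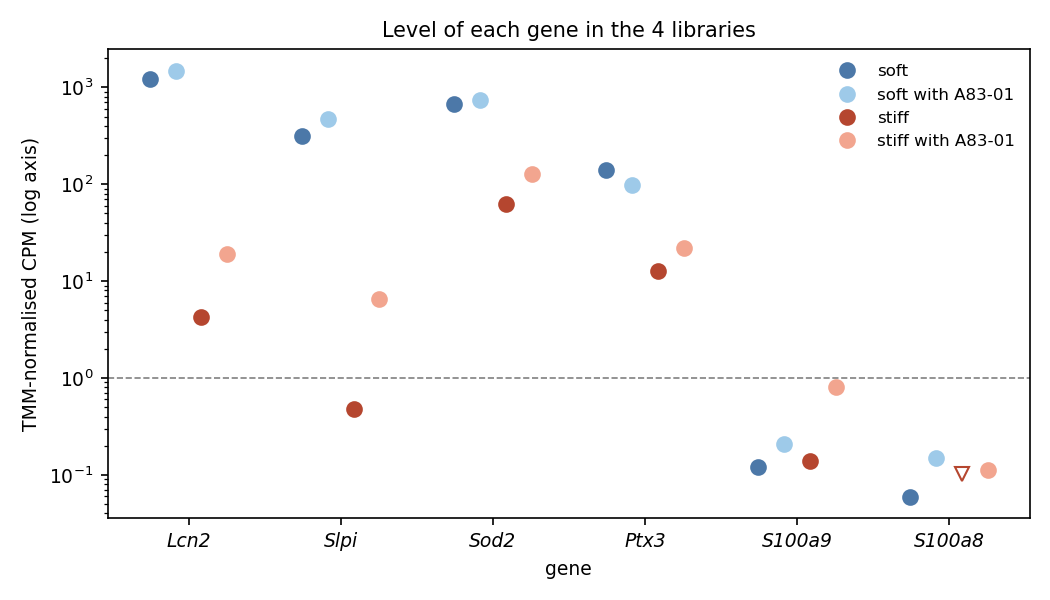
TMM-normalised CPM (log axis) of the 6 genes, with 1 point per library; the dashed line marks the minimum of 1 CPM and the open triangle a count of 0, drawn at the level of 3 counts. Lcn2, Slpi, Sod2 and Ptx3 are lower in both stiff libraries than in both soft ones, and S100a8 and S100a9 lie under 1 CPM everywhere.

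Of the secreted defence genes, Lcn2 and Slpi had the widest range. Lcn2 stood at 1205, 1491, 4.30 and 19.2 CPM. Both soft libraries were high and both stiff libraries low, with stiff the lowest. Lcn2 was 276-fold lower in stiff than in soft (235 to 337) and 77.3-fold lower (71.9 to 83.8) when both libraries had the inhibitor. These ratios had ranks 4 and 6 from the lowest of the 13634 genes.

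Slpi stood at 318, 477, 0.482 and 6.56 CPM. Only 14 counts in the stiff library lay behind its lowest value, against 10639 in soft, and the annotated paralogs Slpil2 and Slpil3 had 0 counts in all libraries. Slpi was the lowest of all compared genes in stiff against soft, 586-fold (393 to 1208). It was 71.9-fold lower (63.8 to 82.95) in stiff than in soft with the inhibitor in both, rank 8 from the lowest.

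Ptx3 stood at 140, 98.8, 12.9 and 21.9 CPM. It was also high on soft and low on stiff, over a narrower range: 10.8-fold lower in stiff (9.76 to 12.1) and 4.50-fold lower (4.17 to 4.89) with the inhibitor in both. Sod2 stood at 672, 748, 62.5 and 127 CPM. Its ratio of stiff to soft was close to that of Ptx3, 10.7-fold lower (10.3 to 11.3), and 5.90-fold lower (5.72 to 6.10) with the inhibitor in both.

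The calgranulins were barely detected. S100a8 had 2, 5, 0 and 4 counts, and S100a9 had 4, 7, 4 and 29 counts. All values of S100a8 lay near the limit of 3 counts, so no difference between its libraries was detectable at this depth. The 29 counts of S100a9 in stiff with A83-01, 0.814 CPM, stood above the other libraries. S100a9 was there 3.24-fold higher (1.67 to 10.5) than in soft with A83-01.

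At 2-fold, with an interval excluding equality, 4 of the 6 genes were lower in stiff than in soft and 0 higher, where 8.58% of all genes compared were lower and 5.33% higher. With the inhibitor in both libraries 4 were lower and 1, S100a9, higher, where 6.72% of all genes were lower and 6.88% higher. The choice of the genes used this contrast, so nothing is read from these counts. S100a8 and S100a9 did not reach the minimum that the genes behind these shares passed, here and in the inhibitor comparisons below. The median log2 ratio of the 6 genes was −3.43 and −2.37 in these comparisons, against 0.00 and 0.01 over all genes. For the 4 that reached the minimum it was −5.77 and −4.37.

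**Figure D2:**
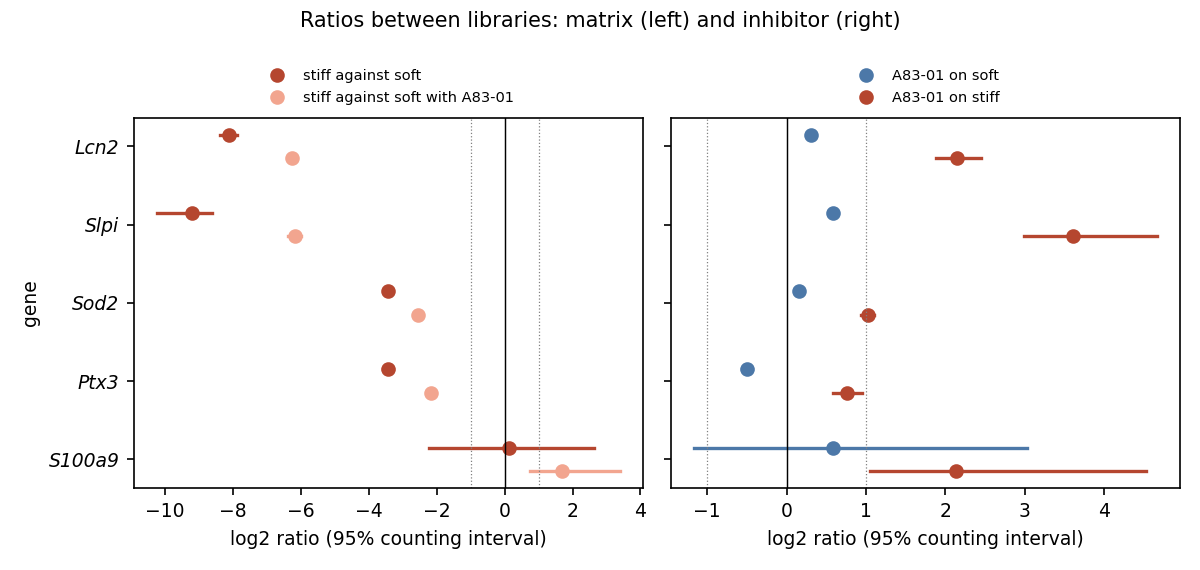
Log2 ratios between libraries (points, prior count 2) with 95% counting intervals (lines) for 5 genes; left, stiff against soft without and with A83-01; right, A83-01 against none on soft and on stiff; dotted lines mark 2-fold. On the right, Lcn2, Slpi and Sod2 have small ratios on soft and larger ones on stiff, and Ptx3 lies below 0 on soft and above 0 on stiff.

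The inhibitor comparison asked whether blocking TGF-beta receptors moves these genes on either matrix. On stiff matrix, 4 of the 6 genes were at least 2-fold higher with A83-01 and 0 lower, where 7.8% of all genes compared were higher and 4.47% lower. Of these 4, S100a9 did not reach the minimum of 1 CPM that all genes compared passed. Slpi was 12.2-fold higher (7.96 to 25.3), Lcn2 4.42-fold (3.69 to 5.45), S100a9 4.41-fold (2.08 to 23.1) and Sod2 2.03-fold (1.92 to 2.14), and Ptx3 was 1.70-fold higher (1.502 to 1.93). Lcn2 and Slpi were chosen for low values in stiff against soft, and the stiff library is the one these ratios divide by, so that choice favours ratios above 1. With A83-01 the levels in stiff stayed far below those in soft: Slpi reached 6.56 CPM against 318 CPM, and Lcn2 19.2 CPM against 1205 CPM.

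On soft matrix, 0 of the 6 genes were 2-fold apart with the inhibitor in either direction, where 2.18% of all genes were higher and 2.44% lower. Slpi was 1.499-fold higher (1.46 to 1.54), Lcn2 1.24-fold higher (1.22 to 1.25) and Sod2 1.11-fold higher (1.09 to 1.13). Ptx3 differed in sign: it was 1.41-fold lower (1.35 to 1.48) with A83-01 on soft. Both inhibitor comparisons and both matrix comparisons share libraries, so their values are set side by side and not related to each other.

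The inhibitor was tested in an additive model of matrix and inhibitor over all 4 libraries, 2 against 2, with 1 residual degree of freedom, by edgeR's quasi-likelihood test adjusted (Benjamini-Hochberg) over the 13634 genes. In it, 0 of the 4 genes that reached the minimum passed, where 0% of all genes were called up and 0.044% down. Lcn2 had a log2 change of 1.18 (SE 0.478, adjusted p = 0.394 by this quasi-likelihood test), higher with A83-01 on 2 of 2 matrices. Slpi had 1.66 (SE 0.697, adjusted p = 0.402 by the same edgeR test) and Sod2 0.59 (SE 0.260, adjusted p = 0.424 by the same edgeR test), both also higher on 2 of 2 matrices. Ptx3 had 0.11 (SE 0.318, adjusted p = 0.910 by edgeR). None of the 4 had an unadjusted p of at most 0.05 in that test, and DESeq2's Wald test and limma-voom also called 0 of the 4, with 1 and 2 of them at unadjusted p of at most 0.05. When libraries were scaled by total counts alone, which moved the median of all genes in A83-01 on stiff by 0.28 on the log2 scale, the edgeR test called 3 of the 4: Slpi (adjusted p = 0.000305), Lcn2 (adjusted p = 0.000982) and Sod2 (adjusted p = 0.0383). In this model a response that differs between the matrices counts as spread. Lcn2 and Slpi were chosen for low values in the stiff library, which is on the untreated side of this term. That choice favours a positive change for them, so their p-values under any scaling are not free of it.

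The size of the inhibitor ratio differed between the matrices for each of the 4 genes beyond counting error. The ratio on stiff divided by the ratio on soft was 8.15 for Slpi (4.91 to 13.5), 3.57 for Lcn2 (2.96 to 4.32), 2.40 for Ptx3 (2.10 to 2.73) and 1.82 for Sod2 (1.72 to 1.93). For S100a9 it was 2.95 (0.761 to 11.4) and for S100a8 1.63 (0.217 to 12.3), neither detectable at this depth. Among all genes compared, 0.499% had a value at or above that of Slpi, 1.90% at or above Lcn2, 4.27% at or above Ptx3 and 8.82% at or above Sod2. With 1 library per group this difference could not be tested against replicates, and for Lcn2 and Slpi the choice of low values in stiff favours it.

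The genes most like each member over the 4 libraries were sought among the other 13633, by the root mean square difference of log2 CPM after each gene's own mean was subtracted. For Lcn2 the nearest were the neutrophil chemokine gene Cxcl2 (0.36), the complement gene C3 (0.48) and Slpi (0.58). For Slpi they were Lcn2 (0.58), C3 (0.60) and Cxcl2 (0.68). C3 stood at 696, 387, 1.14 and 8.47 CPM, and Cxcl2 had 464, 492, 0 and 11 counts. For Ptx3 the nearest were Cebpb (0.13), which encodes a C/EBP transcription factor, the endothelin receptor gene Ednrb (0.17) and the nuclear receptor gene Nr4a1 (0.19). For Sod2 they were the ubiquitin ligase gene Lnx1 (0.09), LOC100912228 (0.15), which had at most 40 counts in any library, and Cebpb (0.15). Cebpb stood at 320, 290, 31.9 and 59.0 CPM, the same order of libraries by matrix as Ptx3 and Sod2. Ptx3 and Sod2 lay 0.27 apart, while Lcn2 lay 2.27 and 2.14 from them. Lcn2 and Slpi were chosen for low values in stiff, and the likeness uses those values, so nothing is read from their closeness. The stiff value of Cxcl2, at 0 counts, was set by the prior count of 2.

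Genes that act with the members were taken from 8 lists, and the effect of matrix on them was tested with the same additive model over all genes, in which 2.35% of all genes were called up on stiff and 3.29% down. For the inhibitor, 0 of the 151 list genes tested passed by edgeR, with 46 (30.5%) at unadjusted p of at most 0.05, against 1812 (13.3%) of all 13634 genes. DESeq2 called 19 of the 151 (12.6%) against 3.4% of all genes, and limma-voom called 0. The lists were chosen with earlier results of these data known, which can raise such shares, so nothing is read from them. The lists follow in the order of the members they belong to.

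Among other secreted antimicrobial and acute phase genes, 2 of 17 compared rose on stiff and 7 fell by edgeR's quasi-likelihood test; with DESeq2 size factors in the same test 2 rose and 4 fell. The list's median log2 ratio in stiff against soft was −1.17, against 0.00 over all genes. Lbp, which carries lipopolysaccharide to its receptor, rose by 4.35 on the log2 scale (SE 0.5003) and stood at 4.18, 1.52, 151 and 14.8 CPM. The lysozyme gene Lyz2 rose by 3.28 (SE 0.380). Lbp and Lyz2 thus moved in the direction opposite to Lcn2 and Slpi. The heme scavenger Hpx fell by 2.58 (SE 0.242), and the galectin Lgals3, the most abundant of the list per length, fell by 1.03 (SE 0.182), with an edgeR adjusted p of 0.0491 that became 0.0657 with DESeq2 size factors. With A83-01 on stiff, 9 of the 17 were at least 2-fold higher and 2 lower, where 7.8% and 4.47% of all genes were. The median log2 ratio there was 1.24 against 0.02 over all genes. On soft, 2 were higher and 1 lower, where 2.18% and 2.44% of all genes were. In this list Chi3l1, a chitinase-like protein, and Cp, the copper-binding ceruloplasmin, both picked after their values were seen, had 216, 384, 8 and 116 counts and 21911, 20753, 1158 and 4477 counts. Both were lowest in stiff and intermediate in stiff with A83-01.

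Beside Slpi, 10 antiproteases and neutrophil proteases were compared, of which 1 rose and 0 fell on stiff by edgeR. DESeq2's Wald test and limma-voom each called 1 up and 1 down, and edgeR with total counts only 1 up and 2 down. Of the 10, 4 were at least 2-fold lower and 2 higher in stiff than in soft, where 8.58% and 5.33% of all genes were. With A83-01 on stiff, 5 were higher and 2 lower, where 7.8% and 4.47% were. Wfdc1, a protein with the same type of WAP domain as Slpi, rose by 3.49 (SE 0.347) and stood at 1.25, 0.507, 19.0 and 3.79 CPM, again the reverse of Slpi. The protease inhibitor Timp1, the most abundant of the list per length, stood at 676, 378, 688 and 363 CPM and did not pass. Of the protease genes that Slpi acts on, Ctsg had 0 counts in all libraries, and Elane, neutrophil elastase, had 0, 0, 0 and 7 counts.

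Of 15 iron-handling genes, 5 fell on stiff and 0 rose. The iron transporter gene Slc11a1 of phagocytes fell by 3.37 (SE 0.266), the iron importer Slc11a2 by 1.25 (SE 0.126) and the transferrin receptor Tfrc by 1.07 (SE 0.132). Ferritin heavy chain, Fth1, the most abundant of the list per length, stood at 1697, 3457, 696 and 1042 CPM and fell by 1.51 (SE 0.245). With DESeq2 size factors 3 of the 15 were called in place of 5, and Fth1 was among those lost (edgeR adjusted p = 0.0569 in place of 0.0410).

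Of 14 other S100 genes and calgranulin receptors, 0 were called on stiff by edgeR, and DESeq2 called 1 up and 1 down. S100a11, the most abundant of them per length, stood at 586, 638, 1003 and 884 CPM. With A83-01 on stiff, 6 of the 14 were at least 2-fold higher and 0 lower, where 7.8% and 4.47% of all genes were.

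Of 9 pentraxins and hyaluronan matrix partners, Tnfaip6 alone was called. It encodes TSG-6, which binds Ptx3 and hyaluronan, and it fell on stiff by 1.56 (SE 0.189), standing at 30.0, 37.7, 12.1 and 10.7 CPM. It was thus low where Ptx3 was low, and its log2 ratio with A83-01 on stiff was −0.18 against 0.76 for Ptx3.

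In the nitric oxide list, 3 of 23 genes rose on stiff and 0 fell. All 3 encode subunits of soluble guanylate cyclase, the receptor for nitric oxide: Gucy1a2 rose by 2.92 (SE 0.373), Gucy1b3 by 2.002 (SE 0.215) and Gucy1a3 by 1.56 (SE 0.180). Gucy1b3 stood at 26.4, 21.2, 82.1 and 109 CPM. Nos3, the endothelial nitric oxide synthase, named here because Nos2 was not analysed, had 1501, 1540, 1733 and 2777 counts and did not pass (log2 0.59, SE 0.147). Caveolin, Cav1, the most abundant of the list per length, stood at 475, 531, 541 and 1148 CPM and did not pass either.

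Beside Sod2, 30 superoxide and peroxide enzymes were compared, of which 4 fell on stiff and 0 rose. The superoxide-producing oxidase Nox1 fell by 3.04 (SE 0.334), the glutaredoxin Glrx by 1.33 (SE 0.181) and the peroxiredoxin Prdx5 by 1.03 (SE 0.133). The other superoxide dismutases did not pass: cytosolic Sod1 had 4167, 4812, 2884 and 4687 counts, and extracellular Sod3 had 17648, 14432, 1378 and 7789 counts. Sod3 and Sod1, like Sod2, were lowest in stiff, but Sod1 varied far less. The peroxidase Gpx3, the most abundant of the list per length, stood at 1569, 967, 1222 and 1911 CPM.

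The list of inducers of such genes, with their receptors and transcription factors, also holds genes that restrain inflammatory transcripts, such as Zc3h12a. Of the 33 compared, 13 fell on stiff and 0 rose. Il1a fell by 6.26 (SE 0.266) and Il1b fell by 5.66 (SE 0.388). Zc3h12a, which encodes an RNase that degrades inflammatory transcripts and is itself induced by interleukin-1, fell by 2.78 (SE 0.130). The list's median log2 ratio was −0.88 in stiff against soft and 0.20 for A83-01 on stiff. Il1a stood at 32.5, 15.5, 0.344 and 0.252 CPM, so it had no higher value with A83-01 on stiff, where Lcn2 and Slpi had one. The lowest of these Il1a values rested on 9 counts. Its inhibitor ratio on stiff divided by that on soft was 1.62 (0.708 to 3.69), so no difference was detectable at this depth. The TNF receptor Tnfrsf1a, the most abundant of the list per length, stood at 292, 324, 341 and 365 CPM and did not pass.

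**Figure D3:**
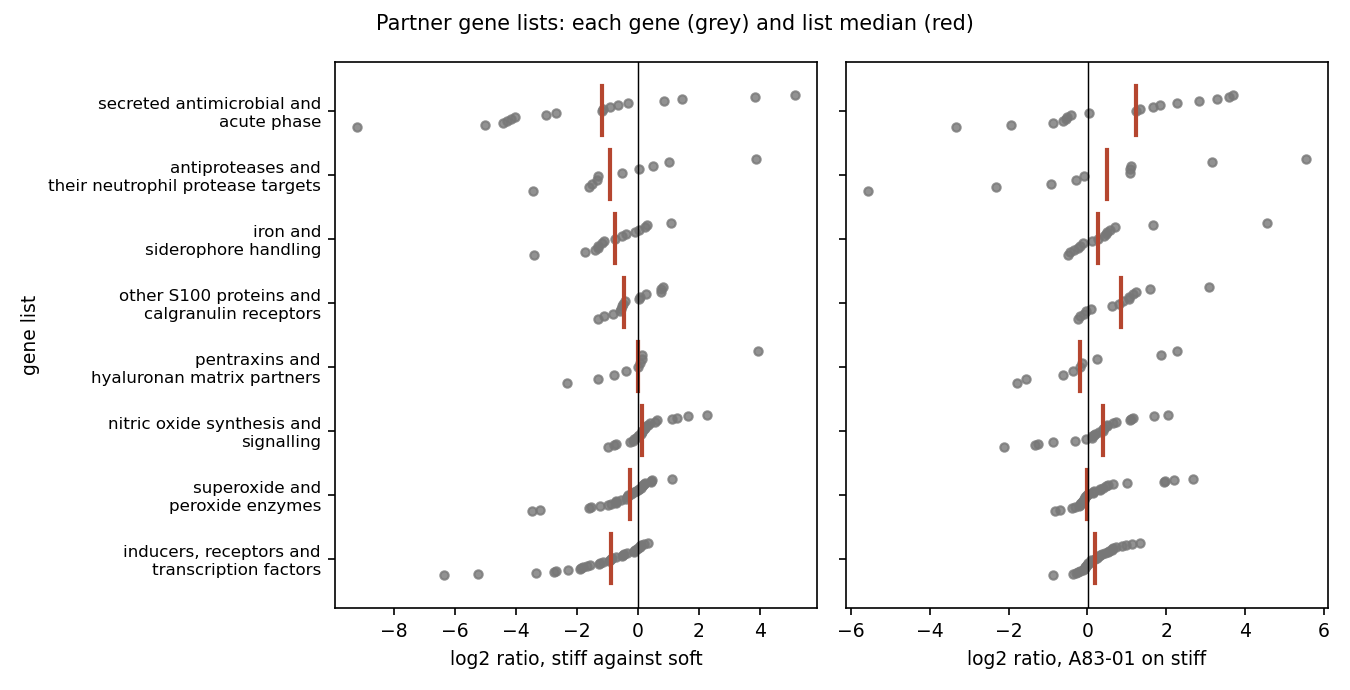
Log2 ratios of stiff against soft (left) and of A83-01 on stiff (right) for genes of the 8 lists that reached 1 CPM in at least 1 library; grey points are genes, red bars list medians and the black line the median of all genes. The antimicrobial and acute phase genes have a median of −1.17 on the left and 1.24 on the right, and the list of inducers −0.88 and 0.20.

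Markers of other cell types that can carry these transcripts were set beside them. Of 17 neutrophil markers in the table, 5 had 0 counts in all libraries, among them Mpo, Cxcr2 and Ltf. Camp, picked after its values were seen, had 22, 30, 0 and 10 counts. Of the 5 markers compared, 1 was at least 2-fold lower and 1 higher in stiff than in soft, where 8.58% and 5.33% of all genes were. With A83-01 on stiff, 1 was higher and 1 lower, where 7.8% and 4.47% were. The whole list summed to 30.8, 42.1, 19.8 and 35.3 CPM, of which the shared leukocyte integrin Itgb2 gave 10.6 to 19.6 CPM. Lcn2 stood at 1205 CPM in soft, but CPM values of different genes give no share of cells. Of 13 keratinocyte and epithelial markers, 8 had 0 counts throughout, among them Krt5, Krt14, Epcam and Cdh1, and the list summed to 4.40 to 6.18 CPM. The 14 macrophage and leukocyte markers summed to 131, 185, 90.9 and 119 CPM, led by Cd68. Of the 11 compared, 5 were at least 2-fold lower and 1 higher in stiff than in soft, where 8.58% and 5.33% of all genes were, and 4 were higher and 1 lower with A83-01 on stiff, where 7.8% and 4.47% were. By edgeR's test of matrix, Adgre1 and Cd74 fell on stiff and Lyz2 rose. The 7 adipocyte markers summed to 1451, 1104, 725 and 861 CPM, most of it Lpl. Of the 7, 5 were at least 2-fold lower and 0 higher in stiff than in soft, where 8.58% and 5.33% of all genes were. With A83-01 on stiff 4 were higher and 0 lower, where 7.8% and 4.47% were. By edgeR's test 3 of the 7 fell on stiff, and 0 markers of either list were called for A83-01. The part of neutrophils, macrophages or adipocytes in the values of Lcn2 and Slpi was not tested. The fibroblast list summed to 54420, 43271, 74047 and 27456 CPM, a large part of it Col1a1. Of its 9 genes, 0 were 2-fold higher and 2 lower in stiff than in soft, and 3 higher and 2 lower with A83-01 on stiff. The endothelial list summed to 2357, 2335, 1928 and 3054 CPM, and of 12 genes these counts were 0, 1, 3 and 0. The mural list summed to 4445, 5719, 11002 and 10001 CPM, and of 12 genes they were 5, 0, 3 and 0. The shares of all genes given above apply here too. By edgeR's test of matrix, 2 fibroblast and 2 endothelial genes fell on stiff and 5 mural genes rose.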

How the data were processed

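Per the labels' protocols, mRNA was selected with oligo(dT) beads, reverse transcribed from random hexamers, amplified by PCR and sequenced in pairs; no molecular identifiers or strand marking are mentioned. The authors deposited whole-number read counts per gene, not normalised, and a table of FPKM values; per the submitters' processing notes, HISAT2, edgeR and the build Rnor_6.0 were used, while no source used here gives the counter, the annotation or any version. The members and gene lists were chosen with earlier results of these data known. Counts were analysed with R 4.3.3, edgeR 4.0.16, limma 3.58.1 and DESeq2 1.42.0; genes were kept where any of the 4 libraries reached 1 CPM after TMM scaling. Pairs of libraries were compared by log2 CPM with a prior count of 2, and differences between inhibitor ratios carry delta-method intervals. The test was edgeR's quasi-likelihood fit with matrix and inhibitor as terms and Benjamini-Hochberg adjustment at 0.05, checked on simulated data, where it found the changed genes but also called unchanged genes above the nominal rate, so its calls, which rest on 1 residual degree of freedom, may hold more false ones than the threshold states. The labels tie no library to a separate animal or culture, so p-values reflect spread among libraries that may be technical. Named list genes were those with the smallest p (at most 3 per list and term) and the most abundant by mean FPKM; Sod1, Sod3, Nos3, Ctsg, Elane, Chi3l1, Cp, Adgre1 and Cd74 were named in addition, after their values were seen. Camp was also named after its values were seen, and was not among the genes checked for opposite inhibitor responses. Scaling, filters, prior count and tools were varied. Promoters came from RefSeq (GRCr8); no coordinates were carried to the build of the counts.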

Additional observations from a re-analysis of the deposited data

Results flagged for a closer look

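Of 53 genes checked (the members, the genes named by rule and those named in addition), 11 had a lower value with A83-01 on one matrix and a higher value on the other, each beyond its counting interval. The share of all genes that meet this rule was not computed, so nothing is read from this count. The rule covers counting error only, so small ratios of genes with many counts can meet it. The difference between the matrices was not tested, since each group had 1 library. Of the members this held for Ptx3, with a log2 ratio of −0.50 on soft and 0.76 on stiff, a difference of 1.26. Among the genes most like a member, C3 went from −0.85 to 2.83, a difference of 3.68. Cebpb went from −0.14 to 0.89 (difference 1.03), Nr4a1 from −0.58 to 0.37 (difference 0.946) and Ednrb from −0.27 to 0.64 (difference 0.908). The extracellular dismutase Sod3 had −0.29 on soft and 2.20 on stiff, a difference of 2.49. Ceruloplasmin, Cp, had −0.08 and 1.66, a difference of 1.73, and the peroxidase Gpx3 had −0.70 and 0.65, a difference of 1.34. For Gucy1b3 the values were −0.32 and 0.41, a difference of 0.728. Lpl, lipoprotein lipase, had −0.46 and 0.21, a difference of 0.665. S100a11 alone of the 11 was higher on soft and lower on stiff, 0.12 and −0.18, a difference of −0.305, and with total-count scaling its stiff value changed sign to 0.10.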

How the results depend on the processing

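No paired analysis was possible because each group holds 1 library, and leaving a library out of the additive model leaves no residual degrees of freedom. No member ratio of a called pair changed sign under any scaling, prior count or the deposited FPKM. The number of genes called for A83-01 was 6 by edgeR and was 0 with DESeq2 size factors (1721 at unadjusted p of at most 0.05), 834 with total counts only, 27 without the filter, 463 by DESeq2, 3 by limma-voom and 0 without matrix in the model (594 unadjusted). In the last model Ptx3 had −0.34 in place of 0.11; the cause was not tested. Stiffness calls, 769 in edgeR, were 1757 with total counts only, 1306 by DESeq2 and 30 without the inhibitor in the model, which also ended 17 of the 19 calls of list genes given above by name and rule, and left 0 calls in each list but the inducers, with 3 in place of 13. Of the other alternatives, DESeq2 size factors ended 2 of these 19, Lgals3 and Fth1, and the rest ended 0 where the gene was tested; with at least 10 counts in every library, Il1a, Il1b and Nox1 were not tested. Among the lists, total counts only gave 14 calls and DESeq2 size factors 6 in place of 9 for antimicrobial genes, and total counts only 8 in place of 4 for peroxide enzymes. Without the filter, 1064 genes in place of 629 were 2-fold apart for A83-01 on soft, where more genes entered. FPKM with a pseudocount of 0.1 placed 1 member past 2-fold there, S100a8 at 2 and 5 counts. Ptx3 had a log2 ratio of 1.05 for A83-01 on stiff with total counts and with FPKM, past 2-fold, in place of 0.76. With total counts the difference between inhibitor ratios was 1.53 in place of 1.26 for Ptx3 and 1.14 in place of 0.86 for Sod2. Total counts moved the median of all genes by −0.23 in stiff against soft and 0.28 in A83-01 on stiff, and the share of higher among called genes from 38.3% to 24.4% and from 63.6% to 81.0%; FPKM gave 24.6% and 81.3%. Slpi in stiff and S100a8 and S100a9 throughout were limited by low counts.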
